A study of Mus musculus with 10 samples.

Results

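The genes described here write, copy and remove DNA methylation. They were Dnmt1, Uhrf1, Dnmt3a, Dnmt3b, Dnmt3l, Tet1, Tet2, Tet3 and Tdg, taken by symbol, and 7 of the 9 were measured among 19025 genes. Tet1 and Tet3 are not analysed here, so the Tet paralogs could not be compared and Tet2 is described alone. Expression was measured by RNA-seq of total RNA in 10 libraries of C57BL/6 mouse cells, 2 in each of 5 groups, within a study of Polycomb and Trithorax complexes.

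The Th2-TSA group was T cells grown as T helper 2 (Th2) cells for 5 days with 15 ng/ml IL-2 and 10 ng/ml IL-4, with 10 nM of the histone deacetylase inhibitor trichostatin A (TSA) added on day 2 for the last 3 days. The Th2 group was grown in the same way without TSA, and both cultures began with splenic CD4 T cells. The CD4 T group was splenic CD4 T cells and the B group splenic B220 B cells, each sorted on magnetic beads to over 98% purity from mice of 6 to 8 weeks. The ES group was the embryonic stem cell line B6N-22, a single line, grown with LIF on mitomycin C-treated embryonic fibroblasts. No vehicle treatment is named for the untreated Th2 cultures.

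Cytosine methylation at CpG sites is set up by the de novo methyltransferases DNMT3A and DNMT3B, with DNMT3L as a catalytically inactive partner that stimulates them. It is copied to the new strand after DNA replication by DNMT1, which UHRF1 guides to hemimethylated sites. TET enzymes oxidise 5-methylcytosine, and TDG, a thymine DNA glycosylase, excises the later oxidation products so that base excision repair can restore an unmethylated cytosine. In the mouse, DNMT3L belongs to germ cells and the early embryo, DNMT3A and TET2 are known regulators of lymphocyte identity, and DNMT1 restrains cytokine genes in T cells.

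All values are FPKM, fragment numbers scaled to transcript length and library size, so levels may be compared between genes. All 7 measured members passed the filter of at least 1 FPKM in at least 2 libraries, Dnmt3l through its ES libraries alone. The deposited FPKM summed to between 405438.5 and 521872.1 per library. The paired libraries of the CD4 T, B and ES groups had an SD of the log2 ratio between 0.0411 and 0.0452, while that of the cultures was 0.302 for Th2-TSA and 0.275 for Th2. Spread from read sampling alone would imply 1 sequencing depth at all levels of expression. Over 5 bins of level the implied depth varied by 1.37 to 1.94 fold in those 3 pairs, against 13.8 fold in Th2-TSA and 13.3 in Th2. The spread of the 3 pairs was taken as that of read sampling, though read numbers are unknown. Each of those 3 pairs was therefore counted as 1 sample, and n = 2 holds for the Th2 groups alone. The 4 Th2 files also repeat 1 value for all transcript rows of a gene, while the 6 others hold a value per row, so culture and kind of file cannot be told apart when Th2 cells are set against CD4 T or ES cells. The 8 pluripotency markers summed to at most 2.76 FPKM in lymphocyte libraries, against 2827 and 2829 in ES libraries. All 6 T cell markers were above 1 FPKM in every Th2-TSA, Th2, CD4 T and B library. They summed to at least 1040 FPKM in each Th2-TSA, Th2 and CD4 T library, against 24.8 and 24.1 in B libraries. The CD4 T libraries also held B cell markers at a summed 257 and 262 FPKM, against 4635 and 4630 in B libraries, and 6 myeloid markers at 290.7 and 290.9. The B libraries held the same 6 myeloid markers at a summed 83.4 and 84.6 FPKM. The ES libraries held 8 of 8 feeder fibroblast markers above 1 FPKM, at a summed 954 and 961 FPKM. The part of these other cells in the results was not tested.

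The maintenance methylation genes Uhrf1 and Dnmt1 both rose in Th2 cells relative to CD4 T cells, Uhrf1 by the larger fold. In ES cells Uhrf1 lay within the range of the Th2 libraries, and in the sorted lymphocytes it was low.

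Dnmt1, the maintenance methyltransferase gene (chr9:20907206-20959888, GRCm38.p6, minus strand), was at 98.4 and 72.5 FPKM in Th2-TSA libraries and at 117 and 103 FPKM in Th2 libraries. It was at 46.6 and 45.0 in CD4 T, 35.3 and 35.8 in B, and 67.2 and 65.9 in ES libraries. Th2 libraries were thus the highest and B libraries the lowest, and no library of one group entered the range of another. Dnmt1 averaged 110.2 ± 9.53 FPKM in Th2 cells (SD, n = 2) and 45.8 FPKM in CD4 T cells (1 sample). The fold change was 2.41, or 1.25 ± 0.24 on the log2(FPKM + 1) scale (SE, limma, adjusted p = 0.0270).

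Uhrf1, whose protein binds hemimethylated CpG and recruits DNMT1 (chr17:56303337-56323486, plus strand), was at 76.9 and 59.1 FPKM in Th2-TSA libraries and at 95.6 and 69.9 FPKM in Th2 libraries. It was at 7.22 and 7.27 in CD4 T, 9.48 and 9.01 in B, and 77.5 and 77.2 in ES libraries. The libraries fell into a high band of cultured Th2 and ES cells, which overlapped among themselves, and a low band of sorted cells. Uhrf1 averaged 82.7 ± 18.1 FPKM in Th2 cells (SD, n = 2) and 7.25 in CD4 T cells, a fold change of 11.4 (log2 3.33 ± 0.29, limma adjusted p = 0.00611).

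**Figure D1:**
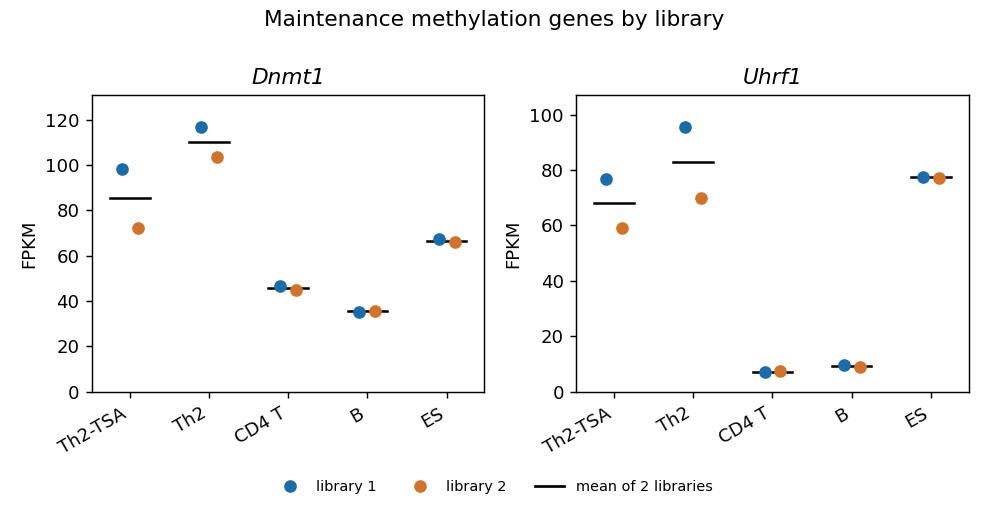
FPKM of Dnmt1 (left) and Uhrf1 (right) in each of the 10 libraries, by group; dots are libraries and bars are means of 2 libraries. Dnmt1 is highest in the Th2 libraries, at 117 and 103 FPKM, and Uhrf1 separates the Th2-TSA, Th2 and ES libraries, all at 59.1 or more, from the CD4 T and B libraries, all at 9.48 or less.

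The ratio of the levels of Dnmt1 and Uhrf1 separated the same cells. Dnmt1 over Uhrf1 was 1.28 and 1.23 in Th2-TSA libraries and 1.22 and 1.48 in Th2 libraries. It was 6.46 and 6.18 in CD4 T, 3.72 and 3.97 in B, and 0.87 and 0.85 in ES libraries. In the sorted lymphocytes Dnmt1 was therefore expressed at several times the level of its recruiting factor, and in the cultures and ES cells the levels were close.

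Of the 12 genes that mark cycling cells, all were above 1 FPKM in every library. Their summed FPKM was 1511 and 1284 in Th2-TSA, 1901 and 1722 in Th2, 249.5 and 254 in CD4 T, 213 and 210.1 in B, and 1256 and 1246 in ES libraries. The sum was thus high in the libraries where Uhrf1 was high, and its part in the results for Uhrf1 and Dnmt1 was not tested. In bulk RNA a smaller share of cells that express a gene and less of its RNA per cell cannot be told apart.

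The promoters of these 2 genes are shown because the genes were higher together in Th2 cells. RefSeq (GRCm38.p6) windows from 250 bases before to 50 after each start were searched on both strands for the letters TTTCGCGC, TTTGGCGC, TTTCCCGC and TTTGCCGC, forms of the motif bound by E2F factors, which may overlap one another. A match was present in 1 of the 3 Dnmt1 windows, which held 2, and in 1 of the 2 Uhrf1 windows, and in no window of another member. The matched Dnmt1 window belongs to a start at 20952623 that has no row in the files, and 166 of its 250 upstream bases lie in exons of other Dnmt1 transcripts. The single Dnmt1 row starts at 20952979, so the match lies downstream of it, and the window of that start held none. The matched Uhrf1 window is that of a measured row, which starts at 56304313. Of all 32851 windows, 744 (2.26%) held one. The bases around the first match are given 5′ to 3′ on the gene's strand with the motif in capitals, at chr9:20952824-20952853 (minus strand, 219 bases before a start) for Dnmt1 and at chr17:56304117-56304146 (plus strand, 185 bases before a start) for Uhrf1.
Dnmt1: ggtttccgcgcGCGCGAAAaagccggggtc
Uhrf1: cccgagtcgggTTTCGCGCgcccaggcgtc
In Dnmt1 the capitals GCGCGAAA are TTTCGCGC read from the opposite strand. These matches describe the windows and say nothing of binding in these cells.

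The Dnmt3 family divided by cell type. Dnmt3b and Dnmt3l were high in ES cells and low in every lymphocyte group, whereas Dnmt3a was within a narrow range everywhere and highest in CD4 T cells. In Th2 cells Dnmt3a fell relative to CD4 T cells, and Dnmt3b fell relative to ES cells.

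Dnmt3a, a de novo methyltransferase gene (chr12:3801559-3914443, plus strand), was at 7.41 and 6.76 FPKM in Th2-TSA and at 11.3 and 10.2 FPKM in Th2 libraries. It was at 19.7 and 20.2 in CD4 T, 13.1 and 13.4 in B, and 14.0 and 13.5 in ES libraries. CD4 T libraries were the highest and Th2-TSA libraries the lowest, and B and ES libraries stood next to each other, 13.2 against 13.7 on average. The Th2 mean of 10.7 ± 0.80 FPKM (SD, n = 2) was 53.7% of the CD4 T mean of 20.0, a log2 fold change of -0.84 ± 0.13 (limma adjusted p = 0.0165).

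Dnmt3b, the second de novo methyltransferase gene (chr2:153649411-153687730, plus strand), was at 4.27 and 3.61 FPKM in Th2-TSA, 4.83 and 3.72 in Th2, 4.81 and 4.85 in CD4 T, and 4.30 and 4.08 in B libraries. In ES libraries it was at 86.1 and 86.1 FPKM. The lymphocyte libraries lay close together, and the Th2 range overlapped those of the Th2-TSA, CD4 T and B groups. The Th2 mean of 4.28 ± 0.79 FPKM (SD, n = 2) was 4.96% of the ES mean, a log2 fold change of -4.05 ± 0.20 (limma adjusted p = 0.00140).

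Dnmt3l, the gene of the inactive cofactor (chr10:78042287-78063622, plus strand), was at 0.09 and 0.10 FPKM in Th2-TSA, 0.06 and 0.14 in Th2, 0.26 and 0.37 in CD4 T, and 0.82 and 0.75 in B libraries, against 262 and 261 in ES libraries. It was the most abundant member in ES cells and the least abundant in each of the 4 lymphocyte groups. The Th2-TSA and Th2 libraries overlapped, and all lymphocyte libraries were under 1 FPKM. The log2 fold change of Th2 against ES cells was -7.90, which the added 1 FPKM makes smaller than the ratio of the levels. It is given with no test, because the gene passed the filter only through the ES libraries.

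**Figure D2:**
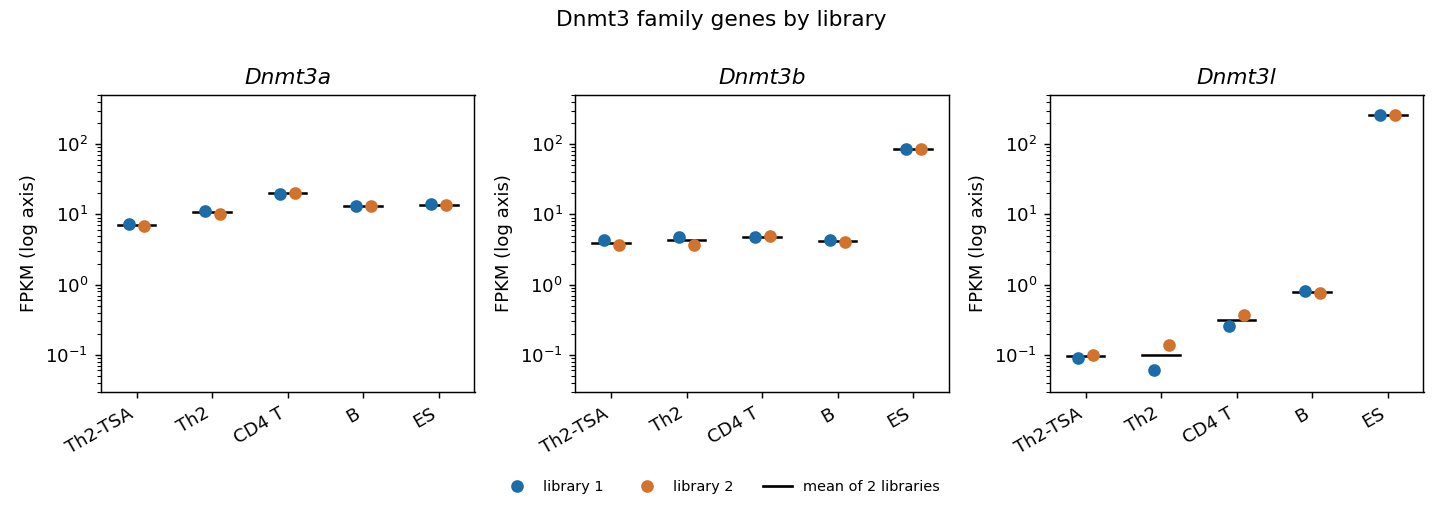
FPKM of Dnmt3a, Dnmt3b and Dnmt3l in each library on a log axis; dots are libraries and bars are means of 2 libraries. Dnmt3a lies between 6.76 and 20.2 FPKM in every library, while Dnmt3b reaches 86.1 and Dnmt3l 262 in ES libraries alone.

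The mix of Dnmt genes therefore differed in its leading member. Dnmt1 made up 89.3% and 87.4% of the summed FPKM of the 4 Dnmt genes in Th2-TSA libraries, 87.8% and 88.1% in Th2, 65.3% and 63.9% in CD4 T, 66.0% and 66.3% in B, and 15.7% and 15.4% in ES libraries. Dnmt3a made up 6.72% and 8.15% in Th2-TSA, 8.48% and 8.65% in Th2, 27.6% and 28.7% in CD4 T, 24.5% and 24.8% in B, and 3.25% and 3.15% in ES libraries. In ES libraries Dnmt3l was the leading gene with 61.0% and 61.2%, followed by Dnmt3b with 20.1% and 20.2%. The summed Dnmt level was 110.2 and 82.9 FPKM in Th2-TSA, 133 and 117 in Th2, 71.4 and 70.4 in CD4 T, 53.5 and 54.0 in B, and 429 and 427 in ES libraries. The order within the de novo pair was opposite in ES and lymphoid cells. Dnmt3b over Dnmt3a was 0.58 and 0.53 in Th2-TSA, 0.43 and 0.37 in Th2, 0.24 and 0.24 in CD4 T, and 0.33 and 0.31 in B libraries, and 6.17 and 6.40 in ES libraries.

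**Figure D3:**
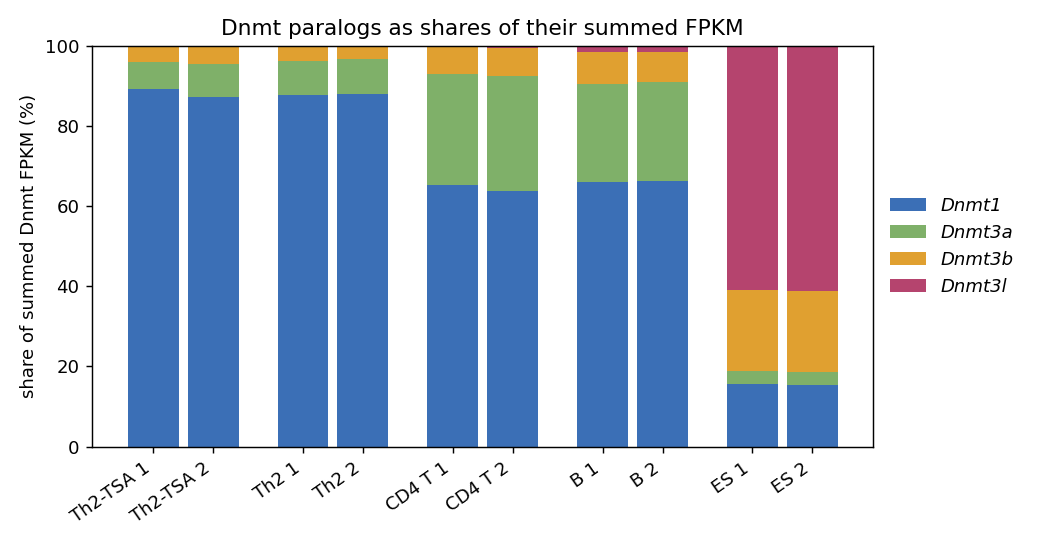
Shares of Dnmt1, Dnmt3a, Dnmt3b and Dnmt3l in their summed FPKM, in percent, for each library. Dnmt1 leads in all 8 lymphocyte libraries, with 63.9% to 89.3%, and Dnmt3l leads in both ES libraries, with 61.0% and 61.2%.

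The CD4 T, B and ES files hold a value for each transcript row. Rows of a gene share most of their exons, and how shared reads were divided among them is not given in the sources used here, so a row's value is not the level of that transcript. A Dnmt3a row beginning at position 3891744 of chromosome 12, with 19 exons, corresponds to the short form Dnmt3a2 known from ES and germ cells, and a row beginning at 3807030, with 23 exons, to the long form. The short row was at 17.0 and 17.5 FPKM in CD4 T, 10.7 and 11 in B, and 14.0 and 13.5 in ES libraries. The long row was at 19.7 and 20.2 in CD4 T, 13.1 and 13.4 in B, and 13.3 and 12.8 in ES libraries. The short over the long row was 0.86 and 0.87 in CD4 T cells, 0.82 and 0.82 in B cells, and 1.05 and 1.05 in ES cells. The ratio was thus higher in ES cells than in lymphocytes, with no replicate test since each group is 1 sample. In all of them it was under the 1.79 that transcript lengths in the GENCODE M21 annotation would give to equal reads. Those lengths need not be the ones behind the deposited values. For the 2 Tdg rows they would give 0.84, against 0.97 in all 6 libraries.

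For Dnmt3l, the row that begins at 78049842 of chromosome 10 was at 0.10 and 0.14 FPKM in CD4 T, 0.62 and 0.59 in B, and 262 and 261 in ES libraries. The row that begins at 78042287 was at 0.26 and 0.37, 0.82 and 0.75, and 244 and 243 FPKM in the same libraries. In ES cells the downstream over the upstream row was 1.07 and 1.07, near the 1.09 that the GENCODE M21 lengths would give, so these rows do not tell which start was used. In CD4 T and B cells it was between 0.38 and 0.79, at levels under 1 FPKM. The 4 Dnmt3b rows differed only as their lengths would make them, by 1.05 between the outer 2 in all 6 libraries, so they carry no information on splice forms.

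The sequences before starts of the 3 Dnmt3 genes are given as a description of their CpG content. Its part in the levels of these genes was not tested. The 250 bases before a RefSeq start of each are printed 5′ to 3′ on the plus strand, with each CG in capitals, from RefSeq on GRCm38.p6. They lie at chr12:3806730-3806979 for the long Dnmt3a form, chr12:3891494-3891743 for the short form, chr2:153649199-153649448 for Dnmt3b and chr10:78049592-78049841 for the downstream Dnmt3l row. For the long Dnmt3a form and Dnmt3b the RefSeq start (3806980 and 153649449) lies upstream of the start of the measured rows (3807030 and 153649453).
Dnmt3a long: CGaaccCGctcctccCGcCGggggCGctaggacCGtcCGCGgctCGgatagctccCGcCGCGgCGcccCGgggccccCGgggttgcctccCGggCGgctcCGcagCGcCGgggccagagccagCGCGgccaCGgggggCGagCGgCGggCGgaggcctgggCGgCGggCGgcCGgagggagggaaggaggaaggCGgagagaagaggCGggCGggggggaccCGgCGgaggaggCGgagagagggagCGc
Dnmt3a short: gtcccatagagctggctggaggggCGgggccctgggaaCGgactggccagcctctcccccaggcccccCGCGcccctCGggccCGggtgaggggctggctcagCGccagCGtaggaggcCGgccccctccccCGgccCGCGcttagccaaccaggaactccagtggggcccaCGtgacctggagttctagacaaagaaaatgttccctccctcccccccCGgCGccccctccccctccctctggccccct
Dnmt3b: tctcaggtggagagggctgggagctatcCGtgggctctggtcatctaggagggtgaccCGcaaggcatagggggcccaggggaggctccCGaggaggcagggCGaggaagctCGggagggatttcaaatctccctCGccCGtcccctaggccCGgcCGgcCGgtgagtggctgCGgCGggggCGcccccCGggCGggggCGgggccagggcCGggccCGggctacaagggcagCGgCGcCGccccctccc
Dnmt3l: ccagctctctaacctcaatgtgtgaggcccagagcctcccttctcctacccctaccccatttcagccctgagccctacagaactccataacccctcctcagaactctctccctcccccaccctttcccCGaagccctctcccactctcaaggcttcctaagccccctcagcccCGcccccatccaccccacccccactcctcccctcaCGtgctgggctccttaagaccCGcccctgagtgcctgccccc
Within these 250 bases the long Dnmt3a form had 38 CpG, the short form 15, Dnmt3b 21 and Dnmt3l 4. Over the whole 300-base windows the 3 Dnmt3a starts had 46, 47 and 18 CpG, the Dnmt3b start 30, and the 3 Dnmt3l starts 6, 4 and 3. The median over all 32851 RefSeq windows was 7. Dnmt3b, high in ES cells as Dnmt3l was, had more CpG than 88.3% of windows, and Tet2 had 57, more than 99.8%. No methylation was measured here.

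The 2 demethylation members measured, Tet2 and Tdg, were both highest in ES cells, and Tdg was lowest in the Th2 cultures. Tet2, a dioxygenase gene (chr3:133463677-133545136, minus strand), was at 9.0 and 6.8 FPKM in Th2-TSA, 7.87 and 7.45 in Th2, 10.9 and 10.9 in CD4 T, 10.1 and 10.2 in B, and 25.9 and 25.8 in ES libraries. The Th2-TSA and Th2 libraries overlapped, and the CD4 T and B groups differed by less than 1 FPKM. Tet2 fell in Th2 cells, at 7.66 ± 0.30 FPKM (SD, n = 2), against 25.8 in ES cells, with a log2 fold change of -1.63 ± 0.20 (limma adjusted p = 0.00917).

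Tdg, the glycosylase gene (chr10:82629814-82650799, plus strand), was at 0.21 and 0.41 FPKM in Th2-TSA and at 0.80 and 1.23 FPKM in Th2 libraries. It was at 4.53 and 4.71 in CD4 T, 5.06 and 5.29 in B, and 9.97 and 9.57 in ES libraries. No 2 groups overlapped. Tdg fell to 1.02 ± 0.30 FPKM in Th2 cells (SD, n = 2), against 4.62 in CD4 T and 9.77 in ES cells, with log2 fold changes of -1.49 ± 0.19 (limma adjusted p = 0.0123) and -2.43 ± 0.19 (limma adjusted p = 0.00363). Tet2 over Tdg was 42.9 and 16.6 in Th2-TSA and 9.84 and 6.06 in Th2 libraries, against 2.40 and 2.32 in CD4 T, 2.00 and 1.92 in B, and 2.60 and 2.69 in ES libraries. GENCODE M21 lists a processed pseudogene, Tdg-ps, and the gene Glt8d2 on the opposite strand over Tdg. How shared or opposite-strand reads were assigned is not given in the sources used here, and the values of Tdg in the 2 kinds of file are uncertain for that reason.

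**Figure D4:**
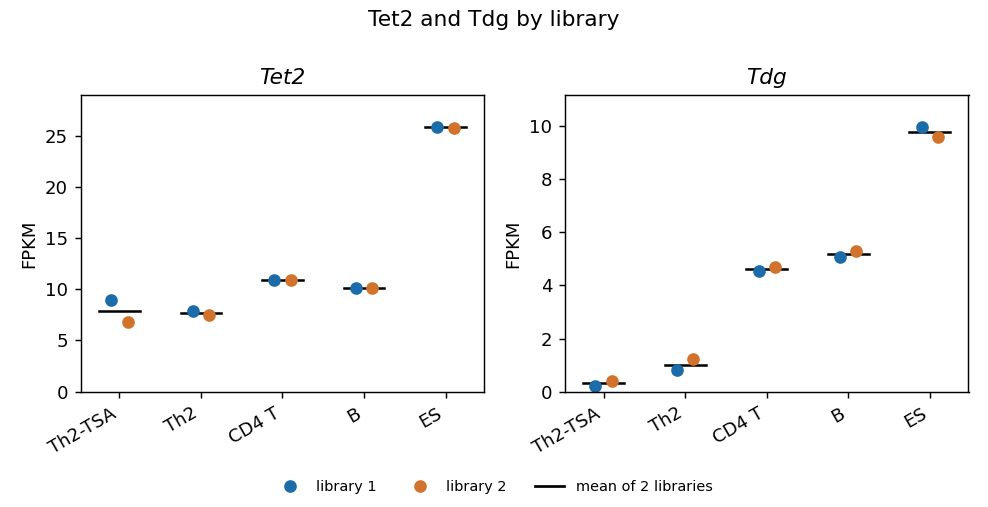
FPKM of Tet2 (left) and Tdg (right) in each library; dots are libraries and bars are means of 2 libraries. Both are highest in ES libraries, and Tdg is at or under 1.23 FPKM in the 4 Th2-TSA and Th2 libraries.

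The same caution holds for other members with partners in that annotation. Antisense genes Dnmt3aos and Dnmt3bos overlap Dnmt3a and Dnmt3b, Gm42567 overlaps Tet2, and Aire overlaps Dnmt3l on the opposite strand. Processed pseudogenes Dnmt3a-ps1 and Dnmt3l-ps1 carry names of 2 members.

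Th2 cells were compared with CD4 T cells, from which they were grown. Of the 7 members, 4 passed the test, Uhrf1 and Dnmt1 upward and Dnmt3a and Tdg downward. The background was high: 54.9% of 12367 genes were called, 16.9% as higher and 38.1% as lower, so the share of members called was near that of all genes. Libraries did not overlap for 6 of 7 members, against 89.9% of all genes. The 3 others had log2 fold changes of -0.15 for Dnmt3b (adjusted p = 0.568), -0.26 for Dnmt3l (adjusted p = 0.0504) and -0.46 for Tet2 (adjusted p = 0.145), all from limma. Dnmt3l was under 1 FPKM in all libraries of both groups, so its value rests on levels near the floor. It passed with 0.5 in place of the added 1 FPKM (-0.45, limma adjusted p = 0.0447), and it was at -0.32 without the first CD4 T library.

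The median over all genes in this comparison was -0.28, and it was 0.00 after quantile normalization, which turned the calls of all genes from 2086 higher and 4709 lower into 3236 higher and 3307 lower. Relative to that median the members stood at 3.61 for Uhrf1, 1.53 for Dnmt1, 0.13 for Dnmt3b, 0.03 for Dnmt3l, -0.18 for Tet2, -0.56 for Dnmt3a and -1.20 for Tdg. Quantile normalization left Dnmt3a at -0.45 (limma adjusted p = 0.0580), and it turned the direction of Dnmt3b (0.38), Dnmt3l (0.07) and Tet2 (0.03), of which Dnmt3b also turned after median-ratio scaling (0.13). Without the first or the second Th2 library, Dnmt1 was at 1.16 and 1.33 (limma adjusted p = 0.110 and 0.0939), and Dnmt3a at -0.91 and -0.77 (0.0699 and 0.0862). Dnmt3a also lost its call without either Th2-TSA library, which share the estimate of spread (0.0506 and 0.0504). The calls of Uhrf1 and Tdg held without any single library.

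TSA-treated cultures were compared with untreated Th2 cultures. None of the 7 members passed limma's adjusted test, where 13.4% of 12907 genes did (9.26% higher and 4.14% lower), and 2 members, Dnmt3a and Tdg, had an unadjusted p below 0.05, as did 4762 genes. Dnmt3a was at 7.09 ± 0.46 FPKM in treated and 10.7 ± 0.80 in untreated cultures (SD, n = 2 each), a log2 fold change of -0.54 with a 95% interval of -0.86 to -0.21 (limma adjusted p = 0.0651). Tdg was at 0.31 ± 0.14 and 1.02 ± 0.30 FPKM, with -0.62 and an interval of -1.11 to -0.13 (limma adjusted p = 0.0948). Dnmt1 was at 85.4 ± 18.4 and 110.2 ± 9.53 FPKM, with -0.38 and an interval of -0.98 to 0.23 (limma adjusted p = 0.265). For these 3 genes both treated libraries lay below both untreated ones; over all genes the libraries did not overlap for 63.8%.

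The other 4 members overlapped between treated and untreated libraries, although Uhrf1 and Dnmt3b were lower in the treated library of both experiments. With the experiment number as a block, Tdg passed (-0.62, limma adjusted p = 0.0490) and no other member did. The 95% interval of the log2 fold change ran from -1.01 to 0.46 for Uhrf1, -0.60 to 0.42 for Dnmt3b, -0.17 to 0.16 for Dnmt3l and -0.48 to 0.54 for Tet2, whose estimate of 0.03 was -0.06 after quantile normalization and -0.01 after median-ratio scaling. Calls over all genes were 1195 higher and 534 lower, and 893 and 728 after quantile normalization, under which Tdg passed (-0.98, limma adjusted p = 0.0360). They came to 273 and 10 genes without the first or the second Th2-TSA library, and to none without either Th2 library. With the libraries of every group counted as separate samples, Dnmt1, Dnmt3a and Tdg passed, with adjusted p = 0.0454, 0.000593 and 0.00313 in limma. That setting takes the small spread of the sorted and ES pairs for replicate spread. The cycling markers summed to 1511 and 1284 FPKM in treated and 1901 and 1722 in untreated cultures, and the 8 B cell markers to 16.2 and 42.2 in treated and 4.43 and 6.39 in untreated cultures. The part of either in these values was not tested.

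**Figure D5:**
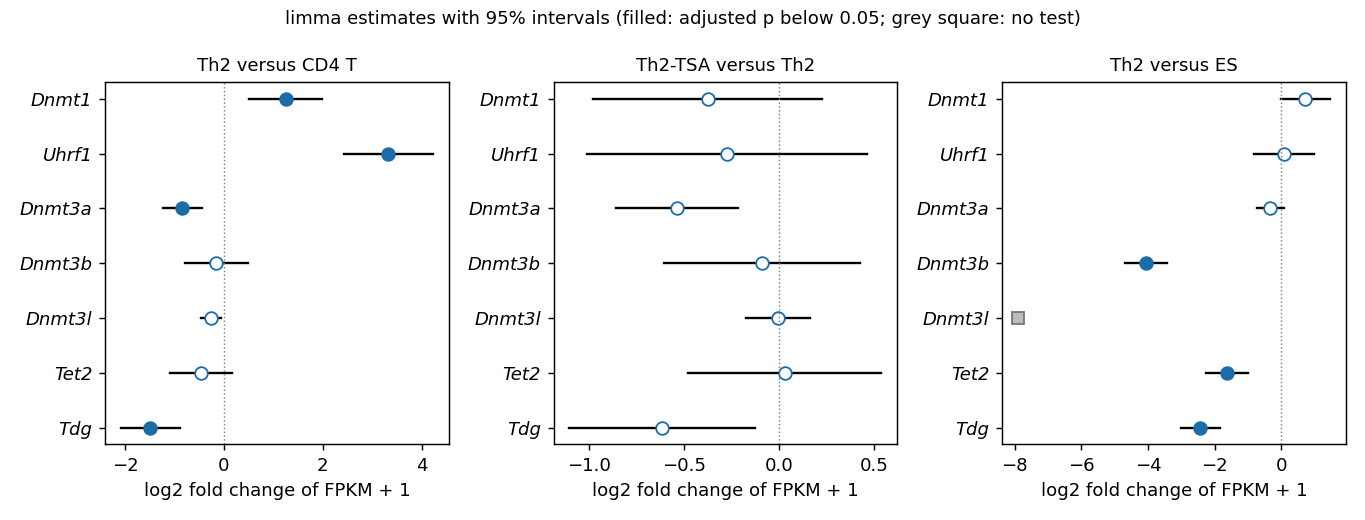
Log2 fold changes of FPKM + 1 from limma for the 7 measured members in Th2 against CD4 T cells, Th2-TSA against Th2 cells and Th2 against ES cells; lines are 95% intervals, filled dots have an adjusted p below 0.05, and the 3 horizontal scales differ. Uhrf1 (3.33) and Dnmt1 (1.25) lie to the right and Tdg (-1.49) and Dnmt3a (-0.84) to the left in the first panel, no dot is filled in the second, and Dnmt3l (-7.90) lies farthest left in the third, as a grey square with no test.

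Th2 cells were also set against ES cells. Leaving out Dnmt3l, 3 of 6 members were lower, Dnmt3b, Tdg and Tet2, and none was higher, where 62.1% of 12367 genes were called, 43.1% as lower and 19.0% as higher. Dnmt1 was at 0.72 (95% interval -0.02 to 1.45, limma adjusted p = 0.0784), Uhrf1 at 0.08 (-0.82 to 0.98) and Dnmt3a at -0.33 (-0.72 to 0.07), which was 0.0031 after quantile normalization and 0.025 after median-ratio scaling. Libraries did not overlap for 5 of these 6, against 92.4% of all genes. The median over all genes was -0.41, and calls were 2355 higher and 5329 lower, or 3711 and 3838 after quantile normalization. Dnmt1 passed after median-ratio scaling (1.09, limma adjusted p = 0.0323), Dnmt1 and Dnmt3a passed with the replicate block (0.0336 and 0.0488), and Tet2 did not without the first or the second Th2 library (adjusted p = 0.0538 and 0.0588).

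Between sorted lymphocytes and ES cells each side was 1 sample, so a rule of size replaced the test: a log2 ratio of at least 2 with at least 5 FPKM on the higher side. Dnmt3l is not counted here, because it passed the filter only through the ES libraries. Its log2 ratios to ES cells were -7.64 in CD4 T and -7.20 in B cells. Of the other members, CD4 T cells passed the rule downward for Dnmt3b (-3.90) and Uhrf1 (-3.25). Over all 12907 genes 22.6% passed in either direction and 11.9% downward. B cells passed it downward for the same genes, Dnmt3b (-4.07) and Uhrf1 (-2.93), where 22.8% of genes passed and 13.4% downward. These comparisons and that of Th2 with ES cells share the ES libraries. Short of the rule, Tet2 stood at -1.17 and -1.27, Tdg at -0.94 and -0.80, Dnmt1 at -0.53 and -0.89, and Dnmt3a at 0.51 and -0.05 (0.11 after median-ratio scaling for the second) in CD4 T and in B cells against ES cells. No member passed between CD4 T and B cells, where 4.27% of genes did. The widest log2 ratio of CD4 T over B cells among members was 0.56, for Dnmt3a.

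Partners of maintenance methylation were followed in a list of 8 genes. In Th2 against CD4 T cells 4 rose, 2 fell and 2 did not pass, with a median log2 fold change of 0.49 against -0.28 over all genes, of which 16.9% were called as higher and 38.1% as lower. All 12 cycling markers, with Pcna of this list among them, also rose (median 2.70), and their part in these values was not tested. Cdca7 and Hells, which form a nucleosome remodeller needed for methylation of repeats, were at 60.4 and 45.5 FPKM in Th2 cells, against 6.59 and 7.17 in CD4 T cells (log2 3.01 and 2.49, limma adjusted p = 0.0108 and 0.00813). Pcna, the replication clamp to which DNMT1 binds, was at 393 FPKM in Th2 cells and 69.7 in CD4 T cells. Zbtb24, an activator of Cdca7, fell to 5.59 FPKM in Th2 cells, against 15.2 in CD4 T cells (log2 -1.30, limma adjusted p = 0.00877). In Th2 against ES cells 2 rose and 3 fell, where 19.0% and 43.1% of all genes did, Pcna (393 against 131 FPKM) among the first and Hells (45.5 against 119.8) among the second. Cdca7 and Zbtb24 missed the threshold without either Th2 library (limma adjusted p between 0.0572 and 0.0618), as did Hells against ES cells without either Th2-TSA library (0.0699 and 0.0706). With TSA none of the 8 passed, where 13.4% of all genes did.

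Of 8 genes of methyl-CpG readers, 4 were lower, none higher and 4 not called in Th2 against CD4 T cells (median -0.31, against -0.28 over all genes). With 38.1% of all genes called as lower, this share is near the background. Zbtb4 fell to 2.95 FPKM in Th2 cells, against 15.5 in CD4 T cells (log2 -2.07), Mbd1 to 23.6 against 52.6 (-1.13), Zbtb33 to 6.49 against 9.89 (-0.54, limma adjusted p = 0.0486) and Mbd2 to 85.3 against 106.7 (-0.32, limma adjusted p = 0.0305). Mbd3, a subunit of the NuRD deacetylase complex whose mammalian form binds methylated CpG weakly, was at 31.4 and 24.3 FPKM in TSA-treated libraries and 56.6 and 64.8 in untreated ones. Mbd3 was the only 1 of the 8 to pass there (log2 -1.11, limma adjusted p = 0.0485), where 13.4% of all genes did. Without any 1 of the 4 culture libraries Mbd3 missed the threshold (adjusted p between 0.0889 and 0.229), as did Zbtb33 (0.0757 to 0.183), which was at -0.03 after quantile normalization. With the replicate block Mbd3 and Zbtb33 also missed it (0.0711 and 0.0661). Mbd2 missed it without any 1 of them too (0.0783 to 0.158) and was at 0.023 after median-ratio scaling, and Mbd1 missed it without the second Th2 library (0.0524). Relative to ES cells, 1 of 7 was higher and 2 lower in Th2 cells, where 19.0% and 43.1% of all genes were. This leaves out Zfp57, which passed the filter only through the ES libraries. Zfp57, a zinc finger gene that protects imprints in ES cells, was at 0.06 FPKM in Th2 and 244 in ES cells. Mbd2 was at 85.3 FPKM in Th2 and 19.2 in ES cells.

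In the list of 15 demethylation and base excision repair partners, 4 rose, 4 fell and 7 did not pass in Th2 against CD4 T cells (median -0.21), so that 8 of 15 were called where 54.9% of all genes were. Gadd45g was at 66.3 FPKM in Th2 and 7.67 in CD4 T cells (log2 2.94, limma adjusted p = 0.0127), and Gadd45a, of the same family of stress-induced adaptors, at 1.16 and 11.1 (log2 -2.49, limma adjusted p = 0.0155). Polb, the repair polymerase, fell to 16.3 FPKM in Th2 cells against 58.2, and Neil1, a glycosylase, to 5.97 against 20.0. With TSA 1 of 15 passed, where 13.4% of all genes did. This was Gadd45a, at 6.62 and 11.5 FPKM in treated and 1.21 and 1.11 in untreated libraries (log2 2.18, limma adjusted p = 0.0429). That call was lost without any 1 of the 4 culture libraries (adjusted p between 0.0539 and 0.223) and with the replicate block (0.0555), and those of Gadd45g and Gadd45a against CD4 T cells without either Th2 library (0.0533 to 0.0797). Relative to ES cells 8 of 15 fell in Th2 cells and 2 rose, near the 43.1% and 19.0% of all genes, with Apex1, the repair endonuclease, at 40.0 FPKM in Th2 and 186.9 in ES cells.

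Among 8 genes of TET regulation and cofactor supply, 7 were tested. In Th2 against CD4 T cells 1 rose and 2 fell (median -0.18), fewer than the 54.9% called over all genes: Idh3a, a mitochondrial isocitrate dehydrogenase subunit gene, at 36.1 against 21.0 FPKM, Ogt, whose product binds TET proteins, at 54.1 against 158.8, and Cxxc5, whose product binds unmethylated CpG, at 0.20 against 6.72. Without either Th2 library Idh3a missed the threshold (limma adjusted p = 0.0830 and 0.0689). Relative to ES cells 6 of 7 fell in Th2 cells, where 43.1% of all genes did, among them Idh1, a source of the TET cofactor 2-oxoglutarate, at 8.82 against 42.7 FPKM. With TSA none of the 7 passed, where 13.4% of all genes did.

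For methyl donor supply, 1 of 8 genes rose and 2 fell in Th2 against CD4 T cells (median -0.33, with 16.9% and 38.1% of all genes called in these directions). None passed with TSA, where 13.4% of all genes did. Ahcy, which removes the inhibitory by-product of methylation, was at 146 FPKM in Th2 and 5.67 in CD4 T cells. Amd1, which draws on the methyl donor for polyamine synthesis, was listed at 0 in both Th2 libraries and at 3.42 and 3.34 FPKM in CD4 T libraries. These 2 genes have near-identical copies in the mouse genome, so their values across the 2 kinds of file are uncertain. Relative to ES cells 1 rose and 4 fell, where 19.0% and 43.1% of all genes did, including Mat2a, a methyl donor synthase gene, at 105 FPKM in Th2 and 246.6 in ES cells (limma adjusted p = 0.0488, and 0.0718 to 0.143 without any 1 of the 4 culture libraries).

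Of 6 regulators of methylation in germ cells and early embryos, 3 (Dppa3, Prdm14 and Zfp42) were near 0 in lymphocytes and the other 3 were expressed there. Those 3 near 0 passed the filter only through the ES libraries, so they are not counted against ES cells. Trim28 passed the size rule downward in CD4 T and in B cells relative to ES cells (log2 -3.17 and -3.18). Over all genes 11.9% and 13.4% did so. Ehmt2, a histone methyltransferase gene, was at 53.5 FPKM in Th2, 56.0 in CD4 T, 58.1 in B and 47.3 in ES cells. Dppa3, which protects methylation in the early embryo, was at most at 0.04 FPKM in lymphocyte libraries, against 31.6 and 31.3 in ES libraries. Prdm14, which represses de novo methyltransferase genes in ES cells, was at most at 0.03 FPKM in lymphocyte libraries, against 6.67 and 7.11 in ES libraries. Trim28, the corepressor of Zfp57, was higher in Th2 than in CD4 T cells (111 against 63.9 FPKM, log2 0.79, limma adjusted p = 0.00995) and lower than in ES cells (111 against 584.5). Against CD4 T cells it missed the threshold without either Th2 library (0.0534 and 0.0631). With TSA none of the 6 passed, where 13.4% of all genes did. Dppa3 and Zfp42 were at 0 in all 4 culture libraries and so could not pass, and Prdm14 was at most at 0.03 FPKM.

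Germline genes whose promoters are known to be methylated in somatic cells were all low outside ES cells. Of 14 such genes 13 had a row, and their highest level in any lymphocyte library was 1.81 FPKM, for Sycp3 in B cells. In ES libraries they lay between 0.12 FPKM for Asz1 and 39.1 for Tex19.1. Between Th2 and ES cells a test that the filter had not decided was possible for Sycp3 alone, at 0.02 FPKM in Th2 and 12.4 in ES cells, and it was lower in Th2 cells. Ddx4, Dazl and Hormad1 passed the filter only through the ES libraries, and the others were at 0 throughout 1 kind of file or too low. With TSA 9 were tested and none passed, where 13.4% of all genes did. Mael, Mov10l1, Sycp1, Taf7l and Tex19.1 were at 0 in all 4 culture libraries and so could not pass. None of the 9 was above 0.34 FPKM in a treated or 0.08 in an untreated culture.

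The genes nearest to each member in pattern were taken by the smallest root mean square difference in centred log2(FPKM + 1) over the 10 libraries, among 10458 genes, as a description. Nearest to Uhrf1 were Cep55 (0.16), Shcbp1 (0.16) and Hmmr (0.21), with Cep55 at 33.0 FPKM in Th2-TSA, 44.5 in Th2, 3.60 in CD4 T, 3.85 in B and 42.2 in ES cells. Nearest to Dnmt1 were Ptpn2 (0.14), Usp1 (0.14) and Rpn2 (0.15). Dnmt3a was nearest to Sap30l (0.07), Zbtb2 (0.10) and Axin1 (0.11), and Tet2 to Mrpl21 (0.07), Rnmt (0.08) and Slc25a33 (0.08). Dnmt3b was nearest to Twist2 (0.11), Rimklb (0.11) and Fgf17 (0.11), Dnmt3l to L1td1 (0.22), Fn1 (0.23) and Igfbp2 (0.24), and Tdg to Zfp710 (0.17), Ank (0.19) and Farp2 (0.20). Twist2, Rimklb and Fgf17 averaged at most 0.04 FPKM in lymphocyte groups and 15.5 to 15.9 in ES cells, while Dnmt3b averaged 3.94 to 4.83 and 86.1. The added 1 FPKM brings these unlike patterns close. Fn1 was also in the feeder fibroblast list, at 363 FPKM in ES cells. Among members themselves the closest pair was Dnmt3a and Tet2, at 0.58, so no 2 members shared a pattern as close as those neighbours.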

How the data were processed

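The authors deposited 1 table per library with FPKM in each transcript row, scaled for length and library size. The submitters' processing notes name TopHat 1.3.2, Bowtie 0.12.8, Cufflinks 2.0.2 and the mm10 build, with settings, strand use and treatment of multiply matching reads not given in the sources used here. Read numbers are unknown, and no counting interval is given.

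Each table held 21035 rows and 19025 genes, and a gene took its highest row. Of 1447 symbols with several rows, the rows were identical for 1442 in the 4 Th2 files and for 58 in the 6 others. Genes with at least 1 FPKM in at least 2 libraries, 12907 in all, were fitted as log2(FPKM + 1) by limma 3.58.1 (R 4.3.3) with a trended prior, over 7 samples with 2 residual degrees of freedom. The lone CD4 T and ES samples are assumed to vary like the Th2 groups. Tests were two-sided with Benjamini-Hochberg adjustment over all genes and a threshold of 0.05. Genes at 0 in all 4 Th2 files (467) or all 6 others (73) were left out of Th2 against CD4 T or ES cells, since such a 0 can be a failed match of names. The fit was tested on simulated data in which the lone samples were given the spread of the Th2 libraries, so that assumption was not checked. Separate animals or cultures behind the replicates are not named in the labels, and the p-values then reflect spread among these samples that may be technical only.

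The members and the lists were chosen with earlier results of these data known. All members are named, up to 4 called genes of each list per comparison by size of change, and 3 nearest genes per member; a few further genes of the lists (Dppa3, Zfp42, Ehmt2, Tex19.1, Asz1) were named after their values were seen. 1 gene of the methyl-CpG reader list is not reported here. All 9 members matched RefSeq promoter windows of GRCm38.p6 (16 windows). Alternatives were other pseudocounts, no filter, sums or means of rows, 2 scalings, a block for the experiment number that the labels of the Th2 groups share, 10 separate libraries, the 4 culture samples alone and leaving out each library.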

Additional observations from a re-analysis of the deposited data

How the results depend on the processing

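Only the Th2 groups have replicates, with 2 residual degrees of freedom, and leaving out a culture library leaves 1. Across single libraries left out, calls ranged from 3188 to 6795 genes for Th2 against CD4 T cells (2 to 5 members), from 0 to 1729 for Th2-TSA against Th2 (0 members) and from 4686 to 7701 for Th2 against ES cells (3 to 4 members, Dnmt3l counted). Directions turned only in small values: Dnmt3b, Dnmt3l and Tet2 with TSA ranged from -0.24 to 0.063, -0.058 to 0.047 and -0.15 to 0.21, and Uhrf1 against ES cells from -0.14 to 0.30. In all, 707 of the values of single genes kept their direction and call when a library was left out, 59 lost the call, 1 gained it and 7 turned. Among the 707 are comparisons of 2 groups that do not hold the library left out, where the log2 fold change could not move. The tally therefore overstates how stable the values are. Under the other settings 791 kept direction and call, 24 lost the call, 22 gained it and 9 turned. These counts take a value short of the size rule as kept while it stays short; 4 such values changed sign after scaling (Dnmt3a in B against ES cells, and Dnmt3b and, in both scalings, Tet2 in CD4 T against B cells).

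With TSA, no filter on low values gave 318 calls in place of 1729, and 10 separate libraries gave 6774 with 3 members. Quantile normalization gave 1 member. Turned values were Dnmt3b (0.38), Dnmt3l (0.067) and Tet2 (0.035) against CD4 T cells, Tet2 with TSA (-0.061) and Dnmt3a against ES cells (0.0031) after quantile normalization, and Dnmt3b (0.13) and Mbd2 (0.023) against CD4 T cells, Tet2 with TSA (-0.015) and Dnmt3a against ES cells (0.025) after median-ratio scaling. The cause was not tested. A log2 ratio of at least 1 in place of 2 raised the size calls to 5500 for CD4 T against ES, 5478 for B against ES and 1423 for CD4 T against B cells. Summing rows, which counts a gene once per row, lowered the share of Dnmt1 to 73.7% in Th2-TSA, 74.0% in Th2, 44.8% for CD4 T cells, 46.0% for B cells, and that of Dnmt3l in ES cells to 54.2%. Averaging rows gave 66.1%, 67.9% and 60.7% for the leading gene of the CD4 T, B and ES groups.

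Same-numbered Th2-TSA and Th2 libraries deviated together across 12907 genes (correlation 0.577 of the differences between experiments 1 and 2), and the labels number the experiments without saying whether the cultures of a number began with the same cells. With a replicate block on the 7 samples, Th2-TSA against Th2 had 1235 higher and 661 lower calls, with 1 member (Tdg, -0.62, limma adjusted p = 0.0490), and Mbd3 and Gadd45a missed the threshold (0.0711 and 0.0555). With 10 separate libraries and the block it had 6927 calls, with 3 members. Against ES cells Dnmt1 (0.72) and Dnmt3a (-0.33) passed with the block on 7 samples (0.0336 and 0.0488).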
